A study of Mus musculus with 32 samples.

Results

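The genes described here are those that stretch over the longest distances in the genome of mouse B cells. They were chosen by 2 values. The span of a gene, from the first to the last base of its gene model, had to be at least 150 kb, and its mean raw count over the 16 libraries of a table at least 20 in each of the 2 deposited count tables. This left 479 of 43345 mouse genes, out of 1533 that span 150 kb or more at any count and 10466 that reach the count minimum at any span. The count minimum used the mean over all libraries, so the level of a gene was part of the choice. The rule used no difference between genotypes, but it was set with earlier results of these data known. RNA was sequenced from ELOF1-deficient and ELOF1-proficient cells of 2 kinds. One is CH12F3, a B lymphoma cell line of the mouse that can change its antibody class from IgM to IgA when stimulated. All of its cells carried an Elof1 knockout (Elof1-KO) together with either an empty vector (deficient, called vector) or an ELOF1 construct (proficient, called ELOF1), and all were stimulated with α-CD40, IL4 and TGF-β. There were 4 libraries of each genotype after 1.5 days, 2 of each after 3 days and 2 of each after 7 days. The other is B cells taken from spleen, either Elof1-cKO (conditional knockout, called cKO) or wild-type (WT), stimulated with IL4 and LPS. There were 5 libraries of each genotype after 2.5 days and 3 of each after 3.5 days. The labels used here do not name the Cre driver of the conditional knockout, the number of clones behind the knockout line, or whether libraries of a group came from separate cultures or animals, so p-values measure only the spread between these libraries. Differences between genotypes are deficient over proficient throughout.

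RNA polymerase II copies a gene from its start to its end, so a transcript of a very long gene is finished only after the polymerase has passed through long introns without coming off the template. ELOF1 is a small protein that travels with elongating polymerase II, and it is known for its part in elongation and in the repair of DNA damage that stalls the polymerase. Long genes in B cells include transcription factors such as Pax5, Ebf1 and Mef2c, kinases such as Prkca and Prkcb, and several genes at common fragile sites, which are long transcribed regions that break under replication stress.

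The promoters of 5 of these genes are shown because these genes fell in cKO spleen cells at both days, and the window is the place where their transcription begins, with a very long gene behind it. They are the 5 longest of the 14 such genes that have a RefSeq transcript start within 1000 bases of the start in the deposited tables, leaving out 1 chromosome whose sequences are not shown. Each window holds the 250 bases before the RefSeq start, read 5′ to 3′ on the gene's own strand (RefSeq, build GRCm38.p6). Capitals mark matches, on either strand, to the CCAAT box (CCAAT, or ATTGG on the other strand) and to the GC box (GGGCGG, or CCGCCC on the other strand), which do not overlap each other. The TATA motif (TATAAA) was searched too and was in none of the 5 windows.
Inpp4b, chr8:81342312-81342561, plus strand: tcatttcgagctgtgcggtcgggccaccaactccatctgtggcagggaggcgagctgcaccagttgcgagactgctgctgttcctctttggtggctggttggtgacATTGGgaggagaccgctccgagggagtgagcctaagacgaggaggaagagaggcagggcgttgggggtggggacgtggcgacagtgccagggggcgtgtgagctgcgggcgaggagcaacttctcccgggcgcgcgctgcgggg
Exoc4, chr6:33248878-33249127, plus strand: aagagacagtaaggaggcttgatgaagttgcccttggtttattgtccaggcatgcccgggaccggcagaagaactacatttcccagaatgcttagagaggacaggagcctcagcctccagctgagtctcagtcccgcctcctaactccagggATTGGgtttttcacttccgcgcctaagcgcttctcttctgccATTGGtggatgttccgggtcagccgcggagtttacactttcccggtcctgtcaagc
Gphn, chr12:78226405-78226654, plus strand: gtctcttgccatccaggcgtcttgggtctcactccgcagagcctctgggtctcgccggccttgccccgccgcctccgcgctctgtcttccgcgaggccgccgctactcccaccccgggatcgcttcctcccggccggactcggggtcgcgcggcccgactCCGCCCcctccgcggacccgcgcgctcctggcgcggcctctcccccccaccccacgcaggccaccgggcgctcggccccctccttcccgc
Tbc1d5, chr17:51179353-51179602, minus strand: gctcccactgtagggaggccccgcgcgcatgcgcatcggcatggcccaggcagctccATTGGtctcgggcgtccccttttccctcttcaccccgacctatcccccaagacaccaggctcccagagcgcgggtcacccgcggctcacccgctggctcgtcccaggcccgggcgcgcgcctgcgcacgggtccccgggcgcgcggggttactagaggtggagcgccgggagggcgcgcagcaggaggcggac
Prkca, chr11:108343889-108344138, minus strand: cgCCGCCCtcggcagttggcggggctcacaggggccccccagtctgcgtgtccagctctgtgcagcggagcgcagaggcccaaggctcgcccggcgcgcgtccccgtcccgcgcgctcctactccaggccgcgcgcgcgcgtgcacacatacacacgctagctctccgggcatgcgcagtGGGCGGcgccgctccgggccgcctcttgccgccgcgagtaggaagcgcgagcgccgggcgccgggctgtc

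These windows had 54.8% to 77.2% G and C bases and 10 to 39 CpG sites, and no motif was in all 5. Among the 374 long genes matched by symbol to a RefSeq promoter (the one nearest the start in the tables, at any distance), the median was 62.6% G and C and 18 CpG sites, against 60.0% and 17 in 7409 shorter genes that passed the same count minimum. The GGGCGG motif was in 63.1% of the long genes' windows, 62.1% of the shorter genes' and 32.7% of the 32851 RefSeq promoters of the same length. The CCAAT motif was in 33.2%, 38.0% and 33.8%, and the TATAAA motif in 6.95%, 5.34% and 12.4%. Across the 374 long genes, promoter G and C content had a Spearman correlation of -0.10 to 0.01 with the difference between genotypes in the 5 comparisons, a description over genes that share libraries.

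Elof1 checked the labels. Its level in CPM, the count relative to the library's total after TMM scaling, was at most 5.49 CPM in vector libraries and 140 to 681 CPM in ELOF1 libraries, and 1.27 to 7.65 CPM in cKO and 11.0 to 55.1 CPM in WT spleen libraries. Mouse totals were 7112130 to 15550229 counts per CH12F3 library and 9807560 to 16359477 per spleen library, so that a long gene had a median of 366 to 672 counts in a CH12F3 library and 296 to 501 in a spleen library. The 8 markers of B cells summed to 1770 to 4360 CPM in CH12F3 and 7830 to 19500 CPM in spleen cells, and the 9 markers of T and NK cells to at most 7.61 and 2.17 CPM. The library numbers in the labels fall into a low run (called the first series, 8 libraries) and a high run (the second series, 24 libraries), and both genotypes are in both runs only at CH12F3 day 1.5 and spleen day 2.5. Mitochondrial ribosomal RNA was 0.984% to 3.08% of counts in the first series and 0.070% to 0.566% in the second, and the fit has a term for the series. At spleen day 2.5, WT and cKO replicate 4 stood above the other libraries of their groups in the level of the long genes. Both are of the first series. For that day the median difference and the number of calls are given with and without them. In bulk RNA, fewer cells of a type and less RNA per cell cannot be told apart.

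The 479 genes span a median of 214219 bases, from 150272 in Mnat1 to 1391091 in Gm37240, and 116 of them span over 300 kb and 28 over 500 kb. Exons take up a median of 3.08% of the span, against 19.6% in the 9987 shorter genes that passed the same count minimum, and the long genes have a median of 20 exon blocks and 7392 exon bases against 9 and 3588. Their level was near that of shorter genes, with a median of 5.41 log2 CPM in CH12F3 and 4.95 in spleen cells against 5.31 and 5.17. Of the 479, 473 are protein-coding, 39 share an exon with another gene on the same strand, and 444 of the 469 with a RefSeq entry also span 150 kb or more there. They lie on 20 chromosomes and were 9.19% of the expressed genes of chromosome 18 (25 of 272) and 2.41% of those of chromosome 7 (19 of 787). All 479 passed the filter on low counts in both fits.

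The 5 longest genes differed in what they did. Gm37240, a predicted gene of 1391091 bases that shares exons with other genes, and Camta1, a calmodulin-binding transcription activator of 944555 bases, had differences between genotypes of -0.13 to 0.08 and -0.07 to 0.44 on the log2 scale in the 5 comparisons. Celf2, an RNA-binding regulator of splicing (969870 bases), lay at -0.15 to -0.03. Pard3b, a cell polarity gene (1003461 bases), and Immp2l, a protease subunit of the mitochondrial inner membrane (931499 bases), were lower in the deficient cells of every comparison, by 0.54 to 0.84 and by 0.33 to 1.48 on the log2 scale. None of the 5 passed the edgeR test at an adjusted p below 0.05 without pairing of the replicates. At the lower edge of the span, Mnat1 (150272 bases), Casz1 (150461) and Iqsec1 (150526) were just included, and Tle4 (149980), Cmah (149866) and 2610037D02Rik (149677) just left out. The log2 differences at spleen day 2.5 were -0.36, -0.08 and 0.24 in the first 3, and -0.27 in Tle4, -0.68 in Cmah and -0.20 in 2610037D02Rik. Of these 6, Cmah passed the edgeR test at day 2.5 (adjusted p = 2.85e-05) and at day 3.5.

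Which long genes changed in spleen B cells that lack ELOF1 was asked first at day 2.5, the comparison with the most libraries. Of the 479 genes, 59 fell and 2 rose in cKO cells by edgeR's quasi-likelihood test (adjusted p below 0.05 over all 13367 genes tested). Of all genes tested, 2.36% were called lower and 2.82% higher, 5.18% in all. Among those that fell were the phosphoinositide phosphatase Inpp4b, the exocyst subunit Exoc4, the kinase Prkca, the transcriptional regulator Atxn1 and the B cell transcription factors Zbtb20, Ebf1 and Mef2c. The fall was under 2-fold in all but 3 of the 59, which were Zbtb20, Med12l and Arsb.

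Inpp4b, a phosphatase of phosphoinositide lipids (chr8:81342556-82125036, plus strand, 782481 bases, mm10), was at 6.36, 7.77, 7.44, 5.26 and 4.75 CPM in the 5 cKO libraries and at 11.7, 12.3, 10.4, 13.8 and 11.6 CPM in the 5 WT libraries. Every cKO library lay below every WT library. The difference was -0.93 on the log2 scale (SE 0.15, edgeR adjusted p = 0.00219), or 1.91-fold lower. Exoc4, a subunit of the exocyst that tethers secretory vesicles (chr6:33249085-33973979, plus strand, 724895 bases), was at 49.2, 51.3, 45.2, 59.2 and 48.4 CPM in cKO and 86.8, 78.3, 83.1, 134 and 93.9 CPM in WT libraries. Again the groups did not overlap, and WT replicate 4 was the highest. Its difference was -0.90 (SE 0.12, edgeR adjusted p = 0.000413).

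Prkca, protein kinase C alpha (chr11:107933387-108343928, minus strand, 410542 bases), was at 54.9, 54.7, 60.9, 71.1 and 54.6 CPM in cKO and at 99.6, 90.5, 94.1, 102 and 99.2 CPM in WT libraries. The WT libraries were close together and all above the cKO libraries (-0.71, SE 0.08, edgeR adjusted p = 0.000113). Atxn1, the ataxin gene that acts in transcriptional repression (415234 bases), was at 30.8, 35, 34.4, 25 and 17.6 CPM in cKO and 62.7, 55.3, 57, 44.8 and 36 CPM in WT libraries. Replicate 5 was the lowest of both groups, and the groups did not overlap (-0.85, SE 0.11, edgeR adjusted p = 0.000341). Osbpl3, an oxysterol-binding protein gene of only 162872 bases, was at 3.93, 4.97, 4.48, 3.35 and 4.37 CPM in cKO and 7.44, 8.42, 6.36, 6.12 and 7.27 CPM in WT libraries, which again did not overlap (-0.75, SE 0.13, edgeR adjusted p = 0.00349).

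Of the other largest falls without overlap of the groups, Ssbp2, a single-stranded DNA-binding protein gene, fell by 0.89 on the log2 scale, Nubpl, an assembly factor of respiratory complex I, by 0.78, and Cmss1 by 0.69. Arsb, a lysosomal sulfatase (-1.03), Zbtb20 (-1.68) and Med12l, a paralog of a Mediator subunit (-1.67), had larger falls, but some of their libraries overlapped. Zbtb20 was at 23, 25.4, 23, 65.3 and 17.7 CPM in cKO and 75.6, 71.8, 60.4, 232 and 72 CPM in WT libraries, with replicate 4 far above the rest in both groups. Only cKO replicate 4 reached into the WT range. In the second series alone, which holds no replicate 4 of this day, Zbtb20 kept its call. Ssbp2 and Med12l lost theirs there. Zbtb20 shares an exon with another gene, so part of its counts cannot be assigned with certainty. Of all 479 genes, 31 had every cKO library below every WT library and 1 had every cKO library above, against 1.62% and 1.5% of all genes tested.

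**Figure D1:**
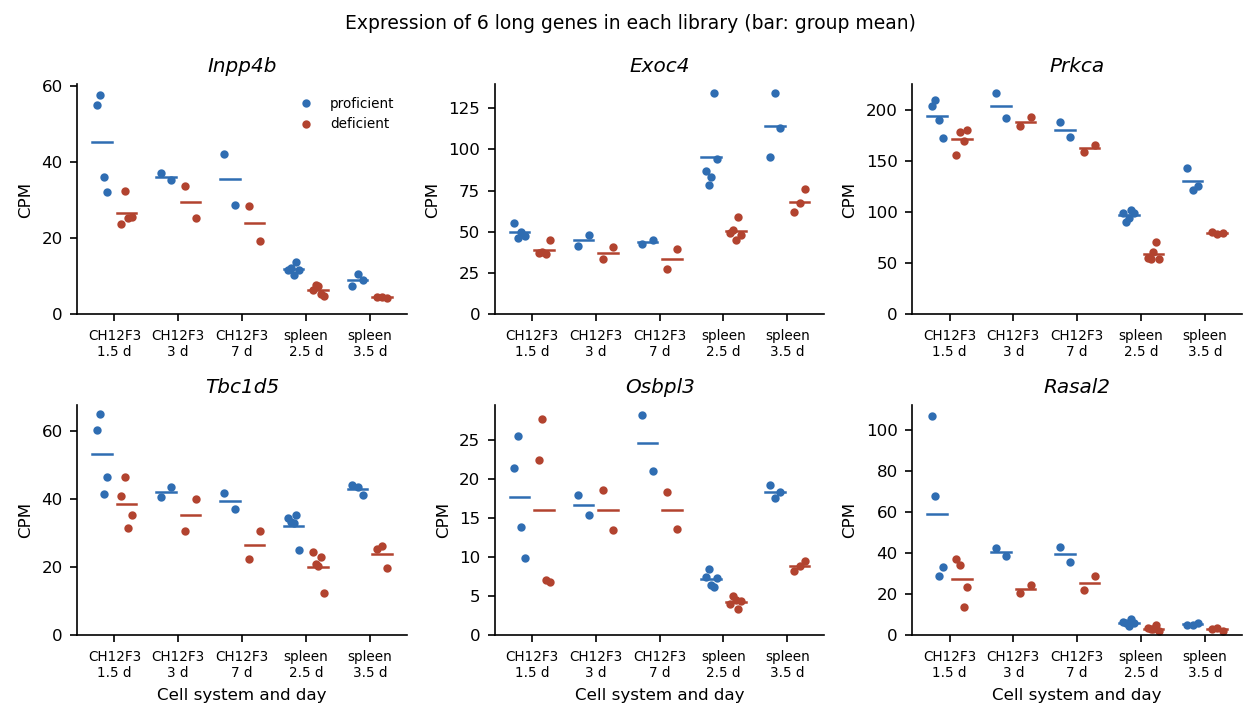
Level in CPM (vertical axis, linear from 0) of Inpp4b, Exoc4, Prkca, Tbc1d5, Osbpl3 and Rasal2 in each of the 32 libraries, by cell system and day (horizontal axis), with blue points for ELOF1-proficient and red points for ELOF1-deficient libraries and bars for group means. In spleen cells the cKO libraries of Inpp4b, Exoc4, Prkca, Tbc1d5 and Osbpl3 lie below the WT libraries of the same day, and in CH12F3 cells the mean of Rasal2 is lower in vector than in ELOF1 libraries on each day.

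The shift was spread over most of the long genes and not carried by the called genes alone. At day 2.5, 377 of the 479 (78.7%) had a negative difference, against 47.8% of shorter genes. Their median was -0.183 with quartiles of -0.376 and -0.035. Set against shorter genes of like level (the median difference of tested genes under 150 kb in the same bin of mean log2 CPM, subtracted from each long gene), the median was -0.200. Without cKO replicate 5 this matched median was -0.115, without WT replicate 4 it was -0.126 and 49 genes were called (44 lower), and without cKO replicate 4 it was -0.276 with 70 called (69 lower). In the second series alone, which holds neither, it was -0.159 with 78 called (73 lower). The count was lowest without cKO replicate 2 (37), WT replicate 1 (38), and cKO or WT replicate 3 (39 each). In the first series alone, with 2 libraries per genotype, the matched median was -0.245. There edgeR called no gene at all, in a fit without pairing. With libraries scaled by the fly RNA added per cell, all genes shifted by -0.144 at day 2.5 and -0.287 at day 3.5 at the median, and by -0.078, -0.187 and -0.135 at CH12F3 days 1.5, 3 and 7. The long genes lay below all genes by about as much as without it, at -0.182 and -0.201 in spleen cells against -0.187 and -0.208, while 8 and 14 of them were called lower.

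At day 3.5 the picture in spleen cells was alike, with fewer libraries. Of the 479 genes, 23 fell and none rose by edgeR, against 0.928% of all 13367 genes tested that were called lower and 1.14% higher. Of these 23, 21 were among the 59 that fell at day 2.5, which is 91.3% of the day 3.5 genes and 35.6% of the day 2.5 genes. The other 2 were Clybl, a mitochondrial lyase, and Diaph3, a formin. The median difference was -0.212, or -0.214 against shorter genes of like level, and 364 genes (76.0%) were negative. In 190 of the 479 every cKO library lay below every WT library and in 29 above, where 12.5% and 12.6% of all genes tested did so with 3 libraries against 3.

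Osbpl3 was at 8.25, 8.81 and 9.43 CPM in cKO and 19.2, 17.6 and 18.3 CPM in WT libraries at day 3.5. The groups were far apart for their spread, with a difference of -1.06 (SE 0.16, edgeR adjusted p = 0.00223), or 2.08-fold lower. Sept9, a septin of 162665 bases, was at 92.9, 82.9 and 89.7 CPM in cKO and 180, 167 and 142 CPM in WT libraries, without overlap (-0.88, SE 0.12, edgeR adjusted p = 0.00136). Prkca was at 80.7, 78.7 and 79.3 against 143, 122 and 126 CPM (-0.71, SE 0.10, edgeR adjusted p = 0.0014). Leaving out any 1 library kept the calls of Osbpl3, Sept9 and Prkca at this day.

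Inpp4b at day 3.5 was at 4.47, 4.64 and 4.37 CPM in cKO and 7.46, 10.7 and 9.11 CPM in WT libraries, without overlap (-1.02, SE 0.20, edgeR adjusted p = 0.0146). Tbc1d5, which acts on the Rab proteins of endosomes (chr17:50733127-51179349, minus strand, 446223 bases), was at 25.4, 26.2 and 19.8 against 44, 43.4 and 41.1 CPM (-0.85, SE 0.18, edgeR adjusted p = 0.0236). Gphn, the scaffold protein gephyrin (chr12:78226655-78684767, plus strand, 458113 bases), was at 38.2, 33.3 and 32.7 against 56.2, 46.5 and 56.5 CPM (-0.61, SE 0.13, edgeR adjusted p = 0.0237). In all 3 the groups stood apart, but leaving out 1 library ended the call in 4 of 6 cases for Inpp4b, 6 of 6 for Tbc1d5 and 4 of 6 for Gphn. The largest falls at this day were in Fggy, a carbohydrate kinase gene (-1.62), and Clybl (-1.10), both scarce, at 0.708 to 1.75 against 3.25 to 4.19 CPM and at 3.76 to 4.40 against 7.50 to 9.80 CPM. The count of 23 is not stable to the loss of a library, since leaving out any 1 of the 6 libraries of this day gave 6 to 10 called genes, all lower. Fggy lost its call in 3 of these 6 cases and Clybl in all 6.

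CH12F3 cells at day 1.5 gave few calls. Without pairing of the replicates, 5 of the 479 genes fell and none rose by edgeR, where 1.15% of all 14201 genes tested were called, 0.549% lower and 0.606% higher. The vector libraries lay all below the ELOF1 libraries in 15 of the 479 and all above in 8, against 1.93% and 1.78% of all genes. The 5 are Rasal2, Dst, Gnaq, Wwc2 and a gene without a symbol that lies inside Dst and shares its exons, so that the last and Dst are in large part 1 measurement. Wwc2 and the gene without a symbol were named after their values were seen. In CH12F3 cells the replicate numbers were taken to pair vector with ELOF1 libraries, which the labels do not state. The pairing was read from these data, where libraries of equal number deviated together (correlations of 0.174 to 0.265 at day 1.5). With the number as a block 76 of the 479 fell (15.9%) and 20 rose. Of all 14201 genes, 582 fell (4.1%) and 639 rose, or 8.6% called in all.

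Rasal2, which switches off Ras (chr1:157135182-157412595, minus strand, 277414 bases), was at 37.2, 34, 13.9 and 23.4 CPM in vector libraries and at 107, 67.7, 29 and 33.4 CPM in ELOF1 libraries at day 1.5. Replicates 1 and 2, of the first series, were the highest in both groups, and vector was lower than ELOF1 in each of the 4 pairs. The difference was -1.02 (SE 0.19, edgeR adjusted p = 0.0225). At day 3 it was at 20.4 and 24.6 against 42.7 and 38.8 CPM and at day 7 at 21.8 and 28.6 against 43.2 and 35.7 CPM, without overlap, though neither passed the test. Gnaq, a G protein alpha subunit, was at 61.9, 49.6, 45.4 and 44.9 against 93.8, 75.7, 54.7 and 55.6 CPM (-0.45, SE 0.10, edgeR adjusted p = 0.0452). Dst, the cytoskeletal linker dystonin, was at 69.2 ± 42.7 CPM in vector libraries and at 126 ± 82.5 CPM in ELOF1 libraries (SD, n = 4 each) and lower in vector in each pair (-0.81, SE 0.16, edgeR adjusted p = 0.0243). Leaving out 1 library gave 0 called genes without ELOF1 replicate 1, vector replicate 1 or vector replicate 2, 1 without ELOF1 replicate 2 or 3, and 4 or 5 without the others. Gnaq lost its call in all 8 of these cases and Dst in 6 of 8.

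Inpp4b in CH12F3 cells at day 1.5 was at 23.7, 32.4, 25.4 and 25.6 CPM in vector libraries and at 55.1, 57.8, 36.1 and 32.2 CPM in ELOF1 libraries. The groups overlapped only through vector replicate 2 (32.4 CPM), which lay just above ELOF1 replicate 4 (32.2 CPM). The difference was -0.71 (SE 0.17, edgeR adjusted p = 0.067), and adjusted p = 0.0013 with the replicate block. Arhgap24 went from an adjusted p of 0.157 to 0.0013 with the block, Pard3b from 0.083 to 0.0067 and Tbc1d5 from 0.0756 to 0.0063, each with edgeR. Lmo7, an adhesion scaffold named after its values were seen, had the largest difference with the block (-2.30, edgeR adjusted p = 0.00025), at 0.374, 2.75, 3.16 and 2.55 against 3.8, 31.1, 8.07 and 8.26 CPM. Of the 76 genes that fell with the block, 13 were among the 59 that fell in spleen cells at day 2.5 (17.1% and 22% of the lists). Of the 59, 22% thus fell with the block, beside 15.9% of all 479 long genes. Whether the overlap is larger than these shares alone would give was not tested. The 13 were Arhgap24, Babam2, Cmss1, Exoc4, Gmds, Inpp4b, Mef2c, Pola1, Rasal2, Snd1, Strbp, Tbc1d5 and Zbtb20.

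At day 3 and day 7, with 2 libraries per genotype, edgeR called none of the 479 genes, where 0.00704% and 0.0352% of all genes tested were called (at day 7, 0.0211% lower and 0.0141% higher). At an unadjusted p under 0.05 there were 18 of the 479 at day 3 and 590 of all 14201 genes, and 41 and 809 at day 7. The lower ones were 16 of the 479 at day 3 (3.34%, against 2.39% of all genes) and 34 at day 7 (7.1%, against 2.86%), so that the count at day 3 is near that of all genes. With the replicate block 1 gene was called higher at day 3 and 3 lower and 1 higher at day 7, against 0.246% and 0.493% of all genes. The direction was the same as in spleen cells for most genes. At days 1.5, 3 and 7, 71.4%, 67.8% and 69.5% of the long genes had a negative difference, against 46.4%, 49.4% and 47.1% of shorter genes. The median against shorter genes of like level was -0.131, -0.080 and -0.118. At day 7 this value was 0.025 without vector replicate 1 and -0.302 without vector replicate 2, so that it rests on 1 library, and at day 3 it was -0.010 without vector replicate 1 and -0.208 without vector replicate 2.

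Each library can be given 1 value for the long genes, the median over the 479 of log2 CPM minus the gene's mean over the table, less the same for shorter genes of like level. In spleen cells at day 3.5 it was -0.132 to -0.044 in the 3 cKO and 0.104 to 0.123 in the 3 WT libraries, which did not overlap. At day 2.5 the second series gave -0.183 to -0.120 in cKO and 0.012 to 0.028 in WT libraries, again without overlap. In the first series cKO replicates 4 and 5 were at 0.241 and -0.251 and WT replicates 4 and 5 at 0.403 and 0.021. The libraries numbered 4 were thus the highest of their groups, and within each number cKO was lower than WT. In CH12F3 cells at day 1.5 the first series was higher than the second in both genotypes, with vector at 0.155 to 0.215 and ELOF1 at 0.289 to 0.377 in the first and -0.179 to -0.010 and -0.031 to 0.032 in the second. Vector lay below ELOF1 without overlap in the first series and overlapped it in the second. Within the pairs of equal number and day, vector was lower than ELOF1 in all 8. At day 7 vector was at -0.355 and -0.046 and ELOF1 at -0.082 and -0.038, so the groups overlapped.

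**Figure D2:**
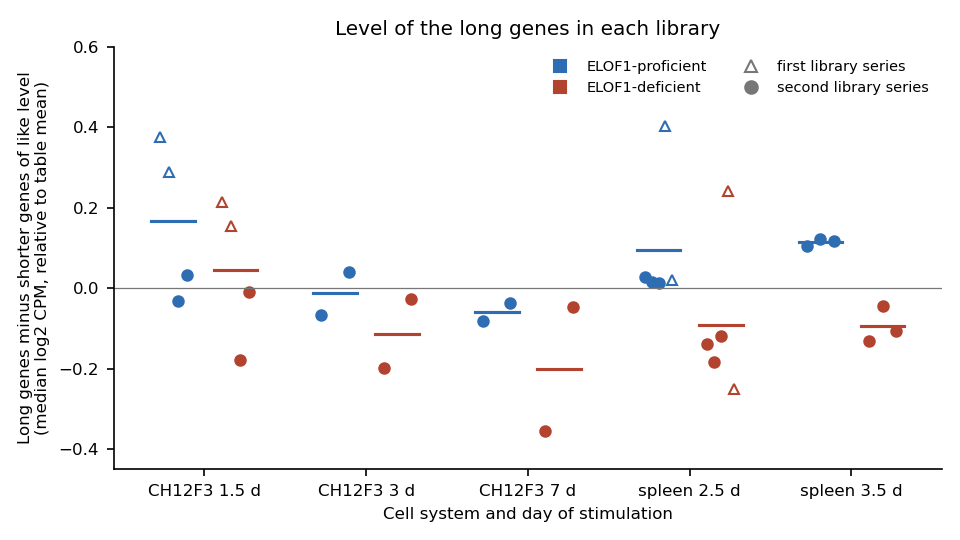
Level of the 479 long genes in each library relative to shorter genes of like level (log2 units, vertical axis), by cell system, day and genotype, with bars for group means, triangles for the first library series and circles for the second. The cKO libraries lie at -0.132 to -0.044 and the WT libraries at 0.104 to 0.123 at spleen day 3.5, and replicate 4 is the highest point of both genotypes at spleen day 2.5.

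The share of all mouse counts that fell in the 479 genes gave the same order. At day 2.5 the share was 2.92 ± 0.514% in cKO and 3.34 ± 0.584% in WT libraries (SD over 5 libraries of each). At day 3.5 it was 2.93 ± 0.171% and 3.33 ± 0.050% (SD over 3 libraries of each). In CH12F3 cells at day 1.5 it was 4.12 ± 0.60% in vector and 4.49 ± 0.71% in ELOF1 libraries (SD, n = 4 each). The difference of the means was larger than the SD at spleen day 3.5 and within it at the others, but at CH12F3 day 1.5 the share was lower in vector in each of the 4 pairs, at 4.75% against 5.29%, 4.46% against 4.87%, 3.40% against 3.77% and 3.87% against 4.02%.

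Among the other cell types that a spleen culture could hold, the 9 myeloid markers summed to 17.2 to 27.8 CPM in cKO and 10.1 to 27.6 CPM in WT libraries at day 2.5. At day 3.5 they summed to 22.9 to 32 CPM and 14.5 to 20.5 CPM, without overlap, on the day on which the values of the long genes did not overlap either. In CH12F3 libraries, which are of a B cell line, the same 9 markers summed to 68.5 to 251 CPM. The sum therefore does not measure myeloid cells alone. The myeloid markers S100a8 and S100a9 were at 0 in all spleen groups, and the median difference of the 4 tested was 0.645 at day 2.5 and 0.848 at day 3.5. The 6 plasma cell markers summed to 628 to 1190 and 759 to 1560 CPM, and the 7 markers of stroma and endothelium to 21.9 to 53.3 and 21.4 to 55.8 CPM. Of the plasma cell markers, Irf4 fell at both spleen days, and of the myeloid markers Cd68 rose at day 2.5. None of the 479 genes is on these 3 lists. Whether other cell types have a part in the difference of the long genes was not tested.

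The difference grew with the span of the gene, also among the long genes. At spleen day 2.5 the median against shorter genes of like level was -0.134 in 201 genes of 150 to 200 kb, -0.179 in 162 of 200 to 300 kb, -0.375 in 88 of 300 to 500 kb and -0.486 in 28 of 500 kb or more. Of these classes, 7.96%, 8.02%, 21.6% and 39.3% of genes were called lower. Below the span minimum the same value was 0.033 under 20 kb, -0.010 at 20 to 50 kb, -0.055 at 50 to 100 kb and -0.102 at 100 to 150 kb. At day 3.5 the 4 classes of long genes were at -0.187, -0.200, -0.323 and -0.516. The order was the same in CH12F3 cells, at -0.086, -0.138, -0.195 and -0.311 on day 1.5, at -0.039, -0.110, -0.111 and -0.154 on day 3 and at -0.052, -0.146, -0.193 and -0.248 on day 7. The days of a system were fitted together.

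**Figure D3:**
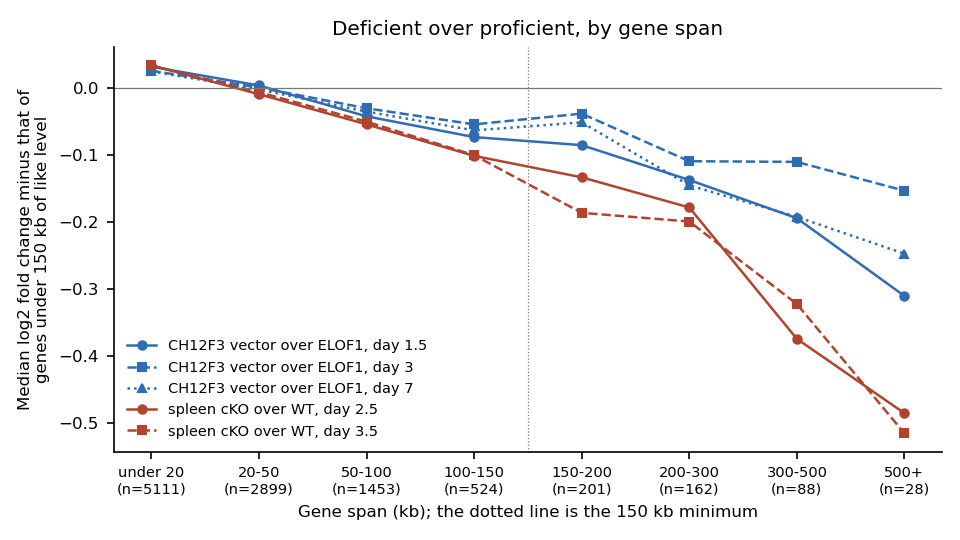
Median log2 difference, deficient over proficient, against shorter genes of like level (vertical axis) in 8 classes of gene span in kb (horizontal axis), 1 line for each of the 5 genotype comparisons. All 5 lines lie above 0 for genes under 20 kb and fall to their lowest value, from -0.154 to -0.516, in the 28 genes of 500 kb or more.

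Within the 479 genes the difference went with span more than with exon content. The Spearman correlation of the log2 difference with span was -0.20, -0.22 and -0.27 on days 1.5, 3 and 7 of CH12F3 cells and -0.28 and -0.23 on days 2.5 and 3.5 of spleen cells (n = 479 genes, which share libraries). With exon length it lay between -0.09 and 0.09, and with the number of exon blocks between -0.11 and 0.06. With the gene's level it was 0.21 to 0.29, so scarcer long genes had larger differences. When shorter genes were matched on exon length as well as level, the median at spleen day 2.5 and 3.5 was -0.163 and -0.169, a choice made after the data were seen.

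The long genes lay below shorter genes in each of the 4 bins of level. At spleen day 2.5, with bins of mean log2 CPM under 3, 3 to 5, 5 to 7 and 7 or more, the medians of the long genes were -0.336 (n = 100), -0.218 (n = 144), -0.143 (n = 168) and -0.136 (n = 67). Those of shorter genes were 0.010, -0.015, 0.016 and 0.034. In these bins 11, 19, 22 and 7 long genes were called lower, or 11.0%, 13.2%, 13.1% and 10.4%, where 1.12%, 3.18%, 2.1% and 1.14% of shorter genes were. At day 3.5 the long genes were at -0.378, -0.241, -0.155 and -0.126 and the shorter at -0.042, -0.026, 0.017 and 0.044. The lowest bin thus held the largest difference, and the share called lower changed little from bin to bin.

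In CH12F3 cells at day 1.5 the same bins gave -0.392, -0.161, -0.053 and -0.079 for long genes and -0.070, -0.004, 0.046 and 0.048 for shorter ones. At day 3 the lowest bin was at -0.131 against -0.096, the least apart of the bins, and at day 7 at -0.327 against 0.001. In the bin of 3 to 5 the long genes were at -0.162 at day 3 and -0.190 at day 7, against -0.017 and -0.012.

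**Figure D4:**
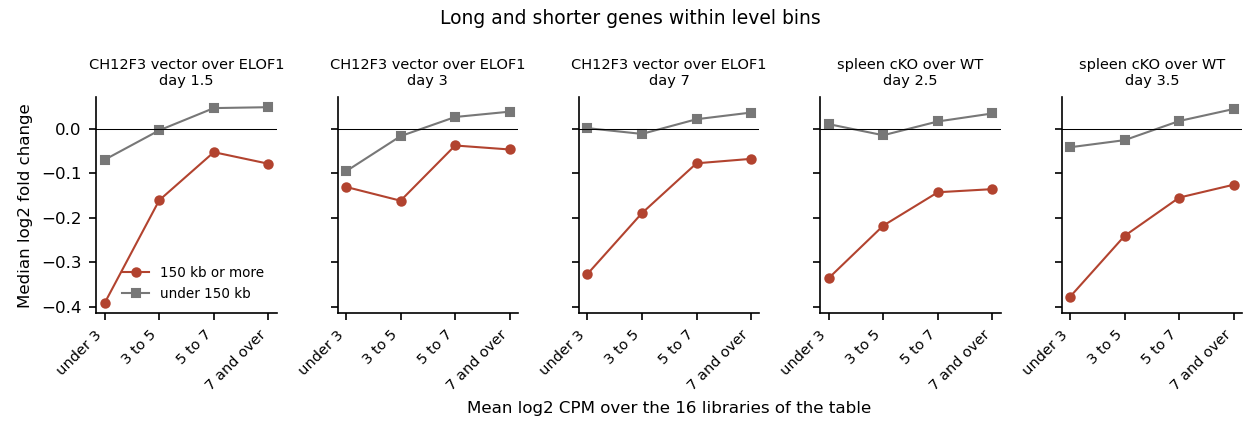
Median log2 difference, deficient over proficient, of the 479 long genes and of shorter genes (vertical axis) in 4 bins of mean log2 CPM (horizontal axis), 1 panel for each genotype comparison. The long genes lie below the shorter genes in all 4 bins of all 5 panels, from -0.392 to -0.038 against -0.096 to 0.048.

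By function, the genes at common fragile sites had the lowest median of 11 lists in spleen cells. The lists were written with earlier results of these data known, so their counts are descriptions. For all lists they stand beside 59 of the 479 long genes that fell at spleen day 2.5 and 23 at day 3.5. Of all genes tested, 2.36% and 0.928% fell. Of 32 fragile site genes 9 were tested in spleen cells, and 5 of them are among the 479. Of these 5, 4 fell at day 2.5 (Exoc4, Wwox, Gmds and Lpp) and 1 at day 3.5 (Exoc4), with medians of -0.668 and -0.624. All 5 were negative in all 5 comparisons. The 28 long genes of 500 kb or more, of any function and with Exoc4 and Wwox among them, had medians of -0.496 and -0.509. Whether the fragile site genes differ from genes of like span was not tested. Wwox, an oxidoreductase gene of 913054 bases that is a classic fragile site, was at 6.64, 7.05, 6.22, 10.1 and 8.62 CPM in cKO and 9.12, 8.78, 9.95, 23.2 and 12.4 CPM in WT libraries at day 2.5. The highest cKO libraries overlapped the lowest WT libraries (-0.67, SE 0.17, edgeR adjusted p = 0.0308). Leaving out 1 library ended the call in 7 of 10 cases for Wwox and 8 of 10 for Gmds, and in none for Exoc4 and Lpp at this day. Wwox and Gmds also lost it in the second series alone. At day 3.5, leaving out 1 library ended the call of Exoc4 in 5 of 6 cases. Gmds, an enzyme of GDP-fucose synthesis, fell by 0.36 and Lpp, a LIM protein of cell contacts, by 0.84 on the log2 scale. In CH12F3 cells none of the 5 passed the test without the block, with medians of -0.345, -0.293 and -0.389.

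Of 13 long transcription factor genes of B cells, 3 fell at spleen day 2.5 and none at day 3.5 (medians -0.216 and -0.194). Ebf1, which sets B cell identity, was at 77.7, 77.9, 73, 105 and 70.7 CPM in cKO and 118, 79.9, 94.1, 169 and 111 CPM in WT libraries, with overlap through replicate 4 (-0.48, SE 0.14, edgeR adjusted p = 0.0492). Mef2c, a factor of B cell proliferation, was at 360, 347, 365, 388 and 489 against 430, 397, 396, 597 and 622 CPM (-0.31, SE 0.08, edgeR adjusted p = 0.0439). Leaving out 1 library ended the call in 7 of 10 cases for Ebf1 and in 9 of 10 for Mef2c. Both also lost it in the second series alone. Pax5, the factor that keeps the B cell fate, was at 333, 336, 381, 394 and 193 CPM in cKO libraries, and 4 of the 5 WT libraries lay within this range at 304 to 359 CPM and the fifth below them (0.10, edgeR adjusted p = 0.82). In CH12F3 cells none of the 13 passed without the block, while Zbtb20 (-0.51), Tcf4 (-0.32) and Mef2c (-0.28) fell with it at day 1.5. At days 1.5, 3 and 7, 5, 7 and 9 of the 13 were negative (medians 0.082, -0.029 and -0.064).

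Of 29 genes of membrane trafficking, 6 fell at day 2.5 (median -0.320) and 3 at day 3.5 (median -0.243), the 3 being Exoc4, Gphn and Tbc1d5. Vps8, a subunit of an endosomal tethering complex, fell by 0.58 at day 2.5. Of 22 kinases and phosphatases, 4 fell at day 2.5 (Prkca, Inpp4b, the stress kinase Map3k5 and the focal adhesion kinase Ptk2) and 2 at day 3.5, with medians of -0.185 and -0.237. Leaving out 1 library ended the day 2.5 call of Map3k5 in 7 of 10 cases and of Ptk2 in 8 of 10. Those of Prkca and Inpp4b were kept in all 10.

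The other lists held fewer calls. Of 30 chromatin and coregulator genes, 2 fell at day 2.5 (Med12l and the methyltransferase Smyd3, medians -0.135 and -0.197 at the 2 days), and of 14 adhesion genes 2 (Lpp and Ptk2, -0.214 and -0.324). Of 11 ubiquitin ligase genes 1 fell (Btbd9, -0.277 and -0.221). Of 12 genes listed under repair and replication 1 fell (Cdkal1, -0.191 and -0.220), which is itself a tRNA-modifying enzyme. Of 11 genes listed under RNA binding 2 fell (the exonuclease Dis3l2 and Ssbp2, -0.237 and -0.219), though Ssbp2 is named for binding single-stranded DNA. At day 2.5, leaving out 1 library ended the call of Btbd9 in 4 of 10 cases, of Cdkal1 in 3 and of Ssbp2 in 2. The median over the 479 long genes was -0.183 at day 2.5 and -0.212 at day 3.5, and over all genes tested 0.004 and -0.005. Whether any list differs from the other long genes was not tested. Of 47 polymerase II elongation genes, of any span, Elof1 fell at both days and Cdk9, the kinase of elongation, rose at day 2.5. The 2 of them that are long passed no test (median 0.195 at day 2.5).

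Only 2 long genes rose in cKO cells at day 2.5. Fmnl2, a formin of 276343 bases, was at 6.27, 6.09, 5.46, 9.66 and 6.4 CPM in cKO and 4.26, 4.12, 4.88, 4.66 and 4.71 CPM in WT libraries, without overlap (0.56, SE 0.15, edgeR adjusted p = 0.0398). Leaving out 1 library ended its call in 8 of 10 cases, and it was lost in the second series alone. Rap1gap2, which switches off Rap1 and was named after its values were seen, was at 13.7, 12, 16.2, 20 and 16.9 against 9.32, 10.2, 8.11, 6.89 and 13 CPM, where cKO replicate 2 lay below WT replicate 5 (0.71, SE 0.16, edgeR adjusted p = 0.0154). At day 3.5 their differences were 0.40 and 0.34 (edgeR adjusted p = 0.361 and 0.539).

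Between the systems, the genotype difference at spleen day 2.5 was tested against that at CH12F3 day 1.5 in 1 fit over all 32 libraries, which was added after the data were seen. It differed in 6 of the 479 genes, where 0.748% of 15639 genes did (0.409% lower and 0.339% higher in spleen cells). Atxn1 (-0.93 in spleen relative to CH12F3, SE 0.18, edgeR adjusted p = 0.0077), Bcl2, the survival factor (-0.77, SE 0.15, edgeR adjusted p = 0.0078), Plxnc1, a semaphorin receptor (-0.70, SE 0.16, edgeR adjusted p = 0.031), Sh3rf1, a scaffold with a ubiquitin ligase domain (-0.69, SE 0.14, edgeR adjusted p = 0.0075), and Prkca (-0.53, SE 0.12, edgeR adjusted p = 0.019) were lower in spleen cells relative to CH12F3 cells. Rap1gap2 was the only one with the opposite sign (0.91, SE 0.19, edgeR adjusted p = 0.017). Bcl2, Plxnc1 and Sh3rf1 were named after their values were seen. Bcl2 was at 109, 119, 116 and 113 CPM in vector libraries and at 82, 96.7, 95.9 and 103 CPM in ELOF1 libraries, all higher in vector, and at 55.4, 46.2, 45.2, 42.8 and 53 in cKO and 77.3, 58.5, 60.9, 74.6 and 72.5 CPM in WT libraries, all lower in cKO.

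Set side by side, 285 of the 479 genes (59.5%) were negative both at CH12F3 day 1.5 and at spleen day 2.5, against 25% of 11779 shorter genes tested in both, and 45 (9.39%) were positive in both, against 33.7%. Taken singly, 71.4% and 78.7% of the long genes were negative there, against 46.4% and 47.8% of shorter genes tested in each fit. Much of the gap in shared signs thus comes from these shares, and agreement beyond them was not tested. The Spearman correlation of the differences across the 479 genes was 0.29 (Pearson 0.21), against 0.21 across shorter genes. Of the 59 genes that fell in spleen cells at day 2.5, 49 (83.1%) were negative in CH12F3 cells, with a median of -0.174. Of all 479 genes, 71.4% were negative in CH12F3 cells, with a median of -0.1. Of the shorter genes that fell in spleen cells, 143 (63.0%) were negative there, with a median of -0.081. For CH12F3 day 7 against spleen day 3.5, 262 genes (54.7%) were negative in both, against 26.5% of shorter genes. Taken singly, 69.5% and 76.0% of the long genes were negative, against 47.1% and 49.4% of shorter genes. Rasal2 was the only long gene that passed the test without the block in both systems, at 3.37, 3.04, 2.96, 4.68 and 1.71 CPM in cKO and 6.45, 5.73, 4.33, 7.77 and 5.7 CPM in WT libraries at day 2.5, with overlap between the highest cKO and the lowest WT library (-0.93, SE 0.24, edgeR adjusted p = 0.0351). Leaving out 1 library ended its call in 3 of 8 cases in CH12F3 cells and in 6 of 10 in spleen cells.

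**Figure D5:**
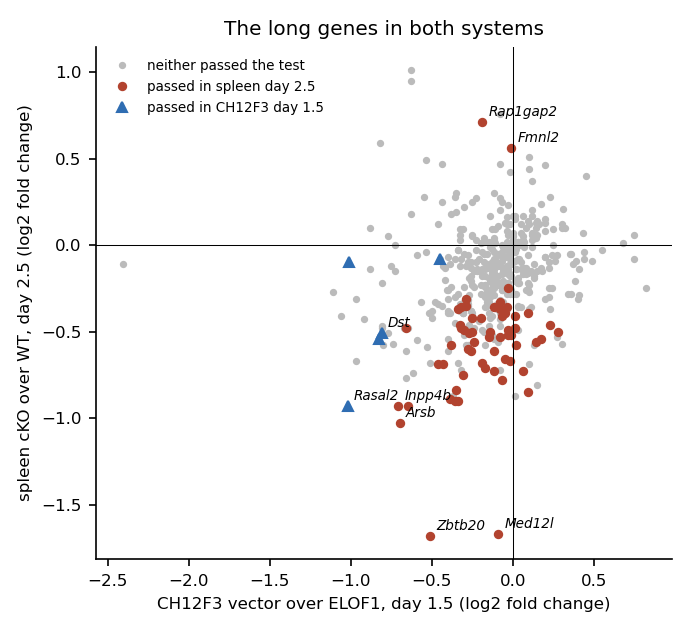
Log2 difference, deficient over proficient, of each of the 479 long genes at CH12F3 day 1.5 (horizontal axis) and spleen day 2.5 (vertical axis), with red circles for genes that passed the edgeR test in spleen cells, blue triangles for those that passed in CH12F3 cells (Rasal2 passed in both) and grey for the others. Most points, 285, lie in the lower left, where both differences are negative, and 45 in the upper right.

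The genotype difference did not change detectably with time in either system. For the difference of effects between days, edgeR called 0.0% of all genes and none of the 479 at CH12F3 day 3 or 7 against day 1.5 and at spleen day 3.5 against day 2.5. At an unadjusted p under 0.05 there were 0, 5 and 8 of the 479 and 173, 272 and 278 of all genes. The median differences of effects of the 479 against shorter genes of like level were 0.040, 0.008 and 0.010. At CH12F3 day 7 against day 1.5, leaving out vector replicate 2 or 1 of day 7 gave -0.175 or 0.151.

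From day 2.5 to day 3.5 in spleen cells, taking the mean of the steps in cKO and WT cells, 47 of the 479 rose and 18 fell by edgeR, or 13.6% in all. This is near the 11.1% of all genes called (7.89% higher and 3.22% lower). The median of the 479 was 0.061, or 0.064 against shorter genes of like level. Over all processing settings the latter ranged from -0.001 to 0.082. The classes of span did not differ in order here, at 0.080, 0.059, 0.047 and 0.072 from 150 to 200 kb up to 500 kb or more. Bank1, an adaptor of B cell receptor signalling, fell from 70.2, 61.4, 76.8, 84.5 and 70 CPM to 31.1, 35.5 and 34.8 CPM in cKO and from 88.8, 100, 79.9, 122 and 121 CPM to 37.8, 50.1 and 44.8 CPM in WT libraries, without overlap of the days (-1.03, SE 0.09, edgeR adjusted p = 9.36e-06). Arhgef3 (-1.01), Filip1l (-0.72) and Fam107b (-0.40) also fell.

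Specc1 (0.97), Clcn5, a chloride transporter of endosomes (0.69), Abr (0.69), and Fam129a (0.64) had the largest rises among genes whose days did not overlap with both genotypes pooled. Osbpl3, which was lower in cKO cells at both days, rose more (1.15, SE 0.12, edgeR adjusted p = 2.3e-05). Its days did not overlap within either genotype. Prkca (0.47), Atxn1 (0.61), Exoc4 (0.48) and Sept9 (0.52), also lower in cKO cells at both days, rose by less. Inpp4b fell (-0.51), a call that leaving out 1 library ended in 6 of 16 cases. With libraries scaled by the fly RNA, all genes moved by -0.152 at the median over time and 6 of the 479 rose and 9 fell, so that the direction of the time step is relative to the other genes. All spleen day 3.5 libraries are of the second series, so this time step leans on the term for the series. With no such term Exoc4 lost its call over time.

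In CH12F3 cells the only long gene called at day 3 against day 1.5 was Chst11, a chondroitin sulfotransferase, and 0.218% of all genes were called. It went from 67.2, 53.8, 58.6 and 60.9 to 36 and 36.4 CPM in vector libraries and from 66.4, 56.6, 62.5 and 69 to 46.7 and 48.6 CPM in ELOF1 libraries, without overlap of the days (-0.59, SE 0.09, edgeR adjusted p = 0.0181). The call was lost without ELOF1 replicate 4, vector replicate 3 or vector replicate 4 of day 1.5 and without ELOF1 replicate 1, ELOF1 replicate 2 or vector replicate 2 of day 3. At day 7 it was back at 62.9 to 71.9 CPM. From day 1.5 to day 7, 3 of the 479 rose and 3 fell, against 1.32% of all genes (0.43% higher and 0.894% lower). At this step 323 of the 479 (67.4%) had a negative difference, against 50.6% of shorter genes. Their median against shorter genes of like level was -0.080, as large as that of the genotype difference at CH12F3 day 3. From 150 to 200 kb up to 500 kb or more it was -0.082, -0.074, -0.089 and -0.008. At day 3 against day 1.5 the median was -0.006, with 52.6% negative. Gse1, a coregulator, fell from 88.3 to 110 CPM over the 8 libraries to 64 to 77.7 CPM over the 4 (-0.62, SE 0.08, edgeR adjusted p = 0.00343), and Gnaq fell by 0.45, as did Fndc3a by 0.60. Osbpl3 (1.10), Ttn (1.55) and Abcc4 (0.49) rose. For Osbpl3 the difference was 0.25 (edgeR adjusted p = 0.67) with no term for the series, and leaving out 1 library ended its call in 5 of 12 cases, as it did for Gnaq in 9 of 12. Fndc3a, Ttn and Abcc4 were named after their values were seen. The count of 6 went to 2 without ELOF1 replicate 4 or vector replicate 3 of day 1.5 and to 1 without ELOF1 replicate 1 of day 7, within a range of 1 to 9 over all such omissions. All CH12F3 day 3 and day 7 libraries are of the second series, so the time steps lean on the term for the series.

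Levels of the long genes differed between the 2 cell systems, which also differ in stimulus and days, and each table was scaled on its own. Per kilobase of exon, the highest in CH12F3 cells were Atp5o (122 ± 18.7 CPM per kb, SD, n = 16), Wdfy4, a gene of antigen cross-presentation (111 ± 24.7), Tbc1d4, a regulator of glucose transporter traffic (110 ± 27.6), Prkcb (84.8 ± 15.5) and Man1a, a mannosidase of the Golgi (59.8 ± 6.57). In spleen cells they were Wdfy4 (120 ± 22.5), Pax5 (118 ± 25.8), Atp5o (66.1 ± 7.47), Mef2c (65.6 ± 12.1) and Samsn1, an adaptor of B cells (59.4 ± 13.7). Neighbours in these orders lie within their spread (SD over the 16 libraries, which mix genotypes and days) for the first 4 of CH12F3 cells, for the first 2 of spleen cells and for the last 3 of spleen cells. Atp5o, a subunit of mitochondrial ATP synthase, and Samsn1 are long only in the gene models of the tables, since their RefSeq spans are 6408 and 50473 bases. Tbc1d4 was at 1.49 ± 0.50 CPM per kb in spleen cells, and Prkcb at 18.3 ± 4.78.

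Of the 479 genes, 113 (23.6%) had all 16 CH12F3 libraries above all 16 spleen libraries in CPM and 36 (7.52%) the reverse, against 13.0% and 7.07% of the 10466 genes that reach the count minimum. The median log2 ratio of CH12F3 to spleen was 0.373 (quartiles -0.11 and 1.12), against 0.110 in shorter genes. Arhgap24 and Rasal2 were among those with higher levels in CH12F3 cells (12.8 against 0.605 and 2.74 against 0.318 CPM per kb), and Arsb was higher in spleen cells (7.03 against 0.55 CPM per kb). The genes that fell in cKO cells thus include both kinds.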

How the data were processed

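RNA depleted of ribosomal RNA was sequenced as 32 strand-specific libraries, with RNA of fly S2 cells added as a spike-in. The authors deposited 1 table of raw counts per gene for each cell system (16 libraries each), made with Bowtie2 and featureCounts on mm10 and dm6, per the submitters' processing notes. Which gene release was counted, and how strand and reads with several matches were handled, is not given in the sources used here. Thus counts of genes that share exons or lie antisense to another gene are uncertain.

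From these counts, fly genes were set aside, genes with low counts were removed (filterByExpr, minimum count 10), mouse genes were scaled by TMM within each table, and edgeR 4.0.16 (R 4.3.3, limma 3.58.1) fitted 1 quasi-likelihood model per table with terms for group and library series. Both tables were fitted whole, p-values were adjusted over all genes by Benjamini-Hochberg, and 0.05 was the threshold. Log2 levels used a prior count of 2. Time steps are the mean of both genotypes' steps. Differences against shorter genes of like level used 4 bins of mean log2 CPM, with edges at 3, 5 and 7. These medians, the lists of 11 gene functions and of 6 cell types, and all correlations across genes carry no test. Mouse totals were 7112130 to 16359477 counts per library. Tested on simulated counts for all genes, the procedure called 65.5% of 200 genes changed by 1 on the log2 scale at CH12F3 day 1.5 (13701 genes) and 70.5% at spleen day 2.5 (13133 genes). For a change of 2 it called 85.0% (13709 genes) and 91.0% (13177 genes).

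In CH12F3 cells vector and ELOF1 libraries with the same replicate number and day deviated together from their group means (correlations of 0.174 to 0.498 over 8 pairs), so that the numbers were taken to pair them. At days 3 and 7, groups of 2 libraries give both pairs of a day the same value (0.498 and 0.337). The 8 are thus not independent, and at day 1.5 they were 0.174 to 0.265. In spleen cells the correlations were -0.281 to 0.651 over 8 pairs. Replicates 4 and 5 of day 2.5, both of the first series, were at 0.6485 and 0.651, and the pairs of the second series at -0.281 to 0.0703. Equal numbers thus deviated together only in the first series, and they were not taken to pair the spleen libraries. No promoter of chromosome 18 is shown, and the result of 1 function list is not reported here. No 2 libraries held identical counts. The members and the lists of genes were chosen with earlier results of these data known. Genes were named by rule: the 5 longest, the 5 highest per kilobase in each system, up to 8 falls and rises per genotype comparison and 4 per time step that passed the test and did not overlap between groups, genes that passed in both systems with 1 sign, called genes of each function list, and the 3 genes just inside the span minimum. Alternatives were other scaling (RLE, fly RNA), no filter, DESeq2 1.42.0, no term for series, a replicate block, each series alone, only the groups compared, each library left out, other minimums of span and count, and other level bins. Matching on exon length, RefSeq spans, genes without shared exons and a fit over all 32 libraries were added after the data were seen. Summaries used Python 3.11.15 with SciPy 1.17.1, pandas 2.3.3 and NumPy 2.4.6, and figures matplotlib 3.10.9.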

Additional observations from a re-analysis of the deposited data

Results flagged for a closer look

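In spleen cells at day 2.5, replicate 4 was far above the other libraries in several values. Its value for the 479 long genes relative to shorter genes was 0.403 among the WT libraries, with a gap to the next library of 0.959 of the whole range, and 0.241 among the cKO libraries (gap 0.734 of the range). For single genes, WT replicate 4 was at 134 CPM in Exoc4 where the other WT libraries were at 78.3 to 93.9 CPM, and at 12.2 CPM in Ssbp2 where they were at 6.63 to 8.23 CPM. In Fmnl2, cKO replicate 4 was at 9.66 CPM where the other cKO libraries were at 5.46 to 6.4 CPM. Of 26 groups of values looked at, 5 held such a library, and it was replicate 4 in each. The groups share libraries and are not independent, so this count cannot be set against chance.

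The genotype difference at spleen day 2.5 departed from that at CH12F3 day 1.5, by the joint edgeR test, in 6 long genes. The difference of the log2 differences was -0.93 in Atxn1, -0.77 in Bcl2, -0.70 in Plxnc1, -0.69 in Sh3rf1, -0.53 in Prkca and 0.91 in Rap1gap2. The systems also differ in cell origin, stimulus and day, which cannot be told apart here.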

How the results depend on the processing

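Counts here are of the 479 long genes called by edgeR unless another tool is named, and medians are against shorter genes of like level. At CH12F3 day 1.5 the 5 calls became 2 with fly scaling, 53 with no filter, 33 with DESeq2, 0 with no series term, 0 in the second series, 1 in the first, 2 with only the groups compared and 3 without genes that share exons. With the replicate block they were 96, and 1 at day 3 and 4 at day 7, where no filter gave 3 and 7. Day 3 over day 1.5 gave 0 with fly scaling, 8 with no filter, 4 with DESeq2, and a median of -0.161 with no series term, and day 7 over day 1.5 gave 1, 37 and 20, and 11 in the second series. The change of the genotype effect from day 1.5 to day 7 gave 1 call with no filter. At spleen day 2.5 the 61 calls became 8 with fly scaling, 22 with no series term, 0 in the first series and 26 with only the groups compared, and the median was -0.386 with a span minimum of 300 kb. At day 3.5 the 23 became 14 with fly scaling, 44 with no filter, 41 with DESeq2, 7 with no series term, 107 in the second series and 83 with only the groups compared. The median there was -0.152 at 100 kb, -0.352 at 300 kb and -0.169 with matching on exon length. Spleen time steps gave 15 with fly scaling and 163 in the second series. The causes were not tested.

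In spleen cells, libraries of equal number deviated together only in the first series. The replicate block over all spleen libraries gave 149 calls at day 2.5 (133 lower) and 78 at day 3.5 (70 lower). Of all genes, 11.5% (5.28% lower) and 6.21% (2.94% lower) were called with it. No paired fit was made for time steps, since the labels do not say which libraries of different days share a culture. The time tests treat these libraries as independent.

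Leaving out 1 library gave 0 to 5 calls and medians of -0.176 to -0.107 at CH12F3 day 1.5, 0 calls and -0.208 to -0.010 at day 3, and 0 calls and -0.302 to 0.025 at day 7. It gave 37 to 77 and -0.276 to -0.115 at spleen day 2.5 and 6 to 10 and -0.228 to -0.170 at day 3.5. Time steps gave 0 to 2 and -0.059 to 0.044 (CH12F3 day 3), 1 to 9 and -0.152 to -0.010 (day 7) and 48 to 88 and 0.057 to 0.082 (spleen). Changes of the genotype effect gave 0 calls each and -0.067 to 0.127 (CH12F3 day 3), -0.175 to 0.151 (day 7) and -0.073 to 0.062 (spleen). Over 1428 alternatives to 75 calls of named genes, 1062 kept the call, 366 lost it and 0 turned its direction. DESeq2 and RLE kept all 75 and fly scaling kept 26.

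Scarce genes limit the depth of these statements: genes under 3 log2 CPM (100 long genes in spleen cells, 50 in CH12F3 cells) carry the largest counting error, and groups of 2 libraries at CH12F3 days 3 and 7 leave few calls.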
